A study of Mus musculus with 20 samples.

Results

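The genes of the insulin receptor pathway described here are Insr, Irs1, Irs2, Pik3r1, Pik3ca, Pdpk1, Akt1, Akt2, Tbc1d4 and Grb10. They were chosen by name, and all 10 were found among the 18193 mouse genes that had at least 1 probe set annotated with a single symbol. Each gene was represented by its probe set of highest mean level over the 20 arrays, and all 10 lay above the expression filter that left 12082 genes for testing. The arrays measured heart ventricle of female C57BL/6 mice that had been ovariectomized at 8 weeks of age and had then carried a minipump for 4 weeks, with 5 arrays in each of 4 groups. The pumps held 16α-LE2, which the labels give as an estrogen receptor α agonist, in the first group, and 17β-estradiol, which activates both estrogen receptors α and β, in the second, each in a cyclodextrin preparation. The third group is titled beta while its treatment label says control solution, so it goes here by its title and stands apart from the fourth group, placebo. All groups, placebo included, lacked ovaries, and no dose is given in the labels, so that the agonists ran equally long at doses that may differ. The series is about estrogen receptor α and glucose uptake by the heart, and insulin is one of the hormones that regulate that uptake.

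Insulin binds a receptor tyrosine kinase in the cell membrane, which phosphorylates docking proteins, the insulin receptor substrates. These recruit phosphatidylinositol 3-kinase, the lipid it makes brings the kinases PDK1 and Akt together at the membrane, and Akt then phosphorylates the Rab GTPase-activating protein AS160, which releases vesicles carrying the glucose transporter GLUT4. In cardiac muscle this route raises glucose uptake after a meal. The pathway works largely through phosphorylation and protein location, neither of which an mRNA level shows.

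Array levels are on a log2 scale, so a difference of 1 is taken as a 2-fold difference. Levels of different genes come from different probe sets and cannot be compared with each other. The 8 markers of ventricular cardiomyocytes averaged 13.91 to 14.34 on single arrays, while 4 of the 5 atrial markers lay above the filter and their list averaged 8.16 to 10.64. Estradiol replicate 33 correlated with the other arrays at a Spearman's rho of 0.941 at most, where pairs of other arrays had 0.978 to 0.992. The SD of all values on an array was lowest in beta-titled replicates 32 and 31 (1.30 and 1.32) and in estradiol replicate 33 (1.34), against 1.48 in placebo replicate 33, the highest. In these whole-tissue samples, fewer cells of a type and less RNA per cell cannot be told apart.

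None of the 10 genes differed between any 2 groups at a Benjamini-Hochberg adjusted limma p under 0.05. For 16α-LE2 against placebo this was 0 of 10 genes, where 0.223% of all 12082 genes passed, and 1 of the 10 had an unadjusted limma p under 0.05, against 9.01% of all genes. For estradiol against placebo, 0% of all genes passed and 9.63% had an unadjusted p under 0.05, and 1 of the 10 did. The largest difference from placebo with 16α-LE2 was that of Irs2, at 1.32-fold above, and the largest with estradiol was that of Pdpk1, at 1.25-fold below. Next in size were Pik3r1 with 16α-LE2, at 0.20 log2 units, and Irs1 with estradiol, at −0.31. In the beta-titled group against placebo 0% of all genes and 0 of the 10 passed. Irs1 and Pdpk1 had an unadjusted limma p under 0.05, against 5.7% of all genes. Neither did without placebo replicate 33, or without the 3 arrays of narrowest spread, where 1.94% and 1.12% of all genes did. Pdpk1 also did not without beta-titled replicate 31 or 32, after quantile normalization or with the mean of probe sets. The median difference of the 10 genes was −0.02 with 16α-LE2, −0.08 with estradiol and −0.13 in the beta-titled group, beside medians of −0.03, −0.03 and −0.04 over all genes. These comparisons share the placebo arrays, and within the groups Irs1 and Pdpk1 deviated together (r = 0.82).

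**Figure D1:**
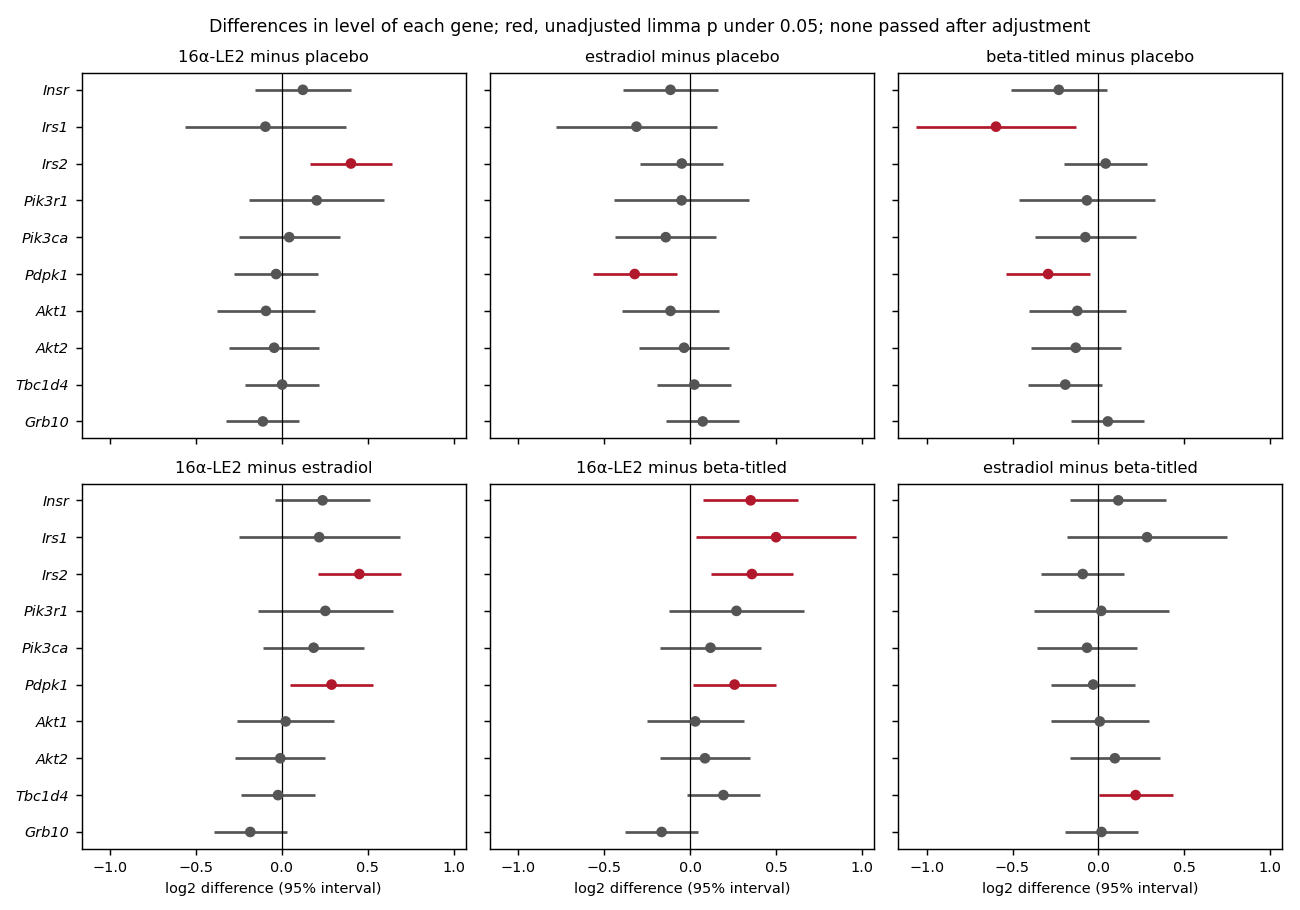
Log2 difference of each of the 10 genes (dots) with its 95% interval (lines) in the 6 comparisons, in log2 units. Intervals in red have an unadjusted limma p under 0.05, and none of the 60 passed after adjustment over all genes. Insr, Irs2, Pik3r1 and Pik3ca lie right of 0 in all 3 comparisons that have 16α-LE2 on top. Of these genes, Irs2 alone has its 95% interval clear of 0 in all 3.

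Insr encodes the insulin receptor itself. Its levels were 10.19, 10.12, 9.96, 10.33 and 10.38 with 16α-LE2 and 9.92, 10.27, 9.79, 10.24 and 9.58 with estradiol, in order of replicate number. They were 9.66, 10.01, 9.96, 9.89 and 9.71 in the beta-titled group and 10.17, 10.30, 10.15, 10.07 and 9.68 with placebo. The groups overlapped, and 4 of 5 arrays with 16α-LE2 lay above every beta-titled array. The log2 difference from placebo was 0.12 ± 0.13 with 16α-LE2 and −0.11 ± 0.13 with estradiol (SE; limma adjusted p = 0.869 and 0.677). Against the beta-titled group, 16α-LE2 stood 0.35 log2 units higher (95% interval 0.07 to 0.63), and this did not pass either (limma adjusted p = 0.613). Both other Insr probe sets had means of 6.83 and 6.61, below the filter at 6.93, and differed by −0.12 and −0.0053 in this last comparison. With the mean of all 3 probe sets the difference between 16α-LE2 and the beta-titled group was 0.074.

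Irs1 and Irs2 encode the insulin receptor substrates through which the receptor of muscle and liver reaches phosphatidylinositol 3-kinase. Transcription of Irs2 is restrained by insulin in liver, where FOXO factors act on an insulin response element in its promoter and an E-box next to it binds TFE3. The 250 bases before the RefSeq transcription starts of both genes (GRCm38.p6) are shown because their messages gave the largest differences of the 10 and because both windows hold these motifs, set in capitals here: TGTTTTG, the core of the insulin response element, and CACGTG, the E-box. The Irs2 window is chr8:11008930-11009179 on the minus strand and the Irs1 window chr1:82291440-82291689 on the minus strand.
Irs2: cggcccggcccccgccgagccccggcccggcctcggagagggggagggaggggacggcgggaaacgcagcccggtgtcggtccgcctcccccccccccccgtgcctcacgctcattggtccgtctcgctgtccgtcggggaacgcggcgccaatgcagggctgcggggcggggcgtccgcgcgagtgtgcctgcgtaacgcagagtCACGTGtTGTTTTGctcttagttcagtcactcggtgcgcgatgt
Irs1: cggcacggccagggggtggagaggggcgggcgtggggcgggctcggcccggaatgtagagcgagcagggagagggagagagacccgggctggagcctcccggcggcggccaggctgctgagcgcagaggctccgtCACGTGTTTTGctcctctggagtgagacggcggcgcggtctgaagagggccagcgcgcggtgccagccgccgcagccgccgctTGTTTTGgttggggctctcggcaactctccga

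In the Irs2 window the E-box starts 44 bases before the transcription start and the core of the insulin response element starts at 37, with 1 base between them. In the Irs1 window the E-box starts at 115 and overlaps a core at 111 by 2 bases, and another core starts 32 bases before the start. On either strand, 5.56% of 32851 mouse promoter windows of this length hold the core, 6.02% hold the E-box and 0.295% hold both. Of the 9 genes with a promoter in the table, Irs1 and Irs2 were those that held either of these motifs. A match of letters describes the window and is not evidence of binding there.

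Irs2 was higher with 16α-LE2 than in any other group, without passing. Its levels were 7.46, 7.72, 7.49, 7.72 and 7.95 with 16α-LE2 and 7.23, 7.14, 7.05, 7.49 and 7.19 with estradiol. They were 7.36, 7.28, 7.02, 7.47 and 7.41 in the beta-titled group and 7.05, 7.27, 7.70, 7.07 and 7.26 with placebo. All 5 arrays with 16α-LE2 lay above the placebo mean and 3 above every placebo array, and the groups overlapped because placebo replicate 33 stood at 7.70 while the other 4 reached 7.27 at most. The level was 7.67 ± 0.20 with 16α-LE2 and 7.27 ± 0.26 with placebo (SD, n = 5 each). The log2 difference was 0.40 ± 0.12 (SE, 95% interval 0.16 to 0.64), with the 148th smallest p of 12082 genes (limma adjusted p = 0.175). Without placebo replicate 33 it was 0.51 (limma adjusted p = 0.0559). With array weights it was 0.46 and passed (limma adjusted p = 0.00807), in a setting where 357 of all genes passed, against 27 in the main fit. The weights ran from 0.674 to 2.59 over the arrays of these groups, and estradiol replicate 33, outside them, had 0.0795. Leaving out that array cannot change the difference of 0.40, since it belongs to neither group, and gave a limma adjusted p of 0.137. Over all alternatives the adjusted p of Irs2 in this comparison ran up to 0.527.

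Irs2 was nearly level in the other groups. The level with estradiol was 7.22 ± 0.16 (SD, n = 5), 0.05 ± 0.12 log2 units below placebo (SE; limma adjusted p = 0.844), and that of the beta-titled group was 7.31 ± 0.18, 0.04 ± 0.12 above it (limma adjusted p = 0.937). Between the agonists, 16α-LE2 was 1.37-fold above estradiol with a 95% interval of 1.16- to 1.61-fold, and 4 of 5 arrays lay above every estradiol array. This was the 21st smallest p of all genes and did not pass (limma adjusted p = 0.414), in a comparison where 0.0166% of all genes did. Against the beta-titled group, 16α-LE2 was 1.28-fold higher (limma adjusted p = 0.382), in a comparison where 0.174% of all genes passed. The order of the group means was 16α-LE2, beta-titled, placebo and estradiol, and the last 3 lay within 0.09 log2 units of each other. Irs2 has a single probe set on the array, which stands at the 20.9th percentile of the levels tested, so that no other probe set can be set beside it and a stricter filter removes it.

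A fibroblast marker and a red blood cell marker passed the threshold in the same comparison, and none of the other markers of other cell types did. The 6 fibroblast markers averaged 9.70 to 9.93 on the arrays with 16α-LE2 and 9.99 to 10.65 on placebo arrays, with 1 of 6 past the threshold, and the 3 measured markers of red blood cells averaged 7.98 to 8.88 with 16α-LE2 and 7.57 to 8.01 with placebo, with 1 of 3 past it. The 5 endothelial markers averaged 8.95 to 9.44 with 16α-LE2 and 9.30 to 9.85 with placebo, and none of them passed. Of the 4 measured markers of adipocytes, another insulin-responsive cell type, Adipoq and Cidec lay below the filter, and the list averaged 7.03 to 7.27 with 16α-LE2 and 7.09 to 7.49 with placebo. The part of these cell types in the Irs2 difference was not tested.

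Irs1 varied more between replicates than any other of the 10 genes. Its levels were 9.86, 10.20, 9.77, 10.64 and 10.36 with 16α-LE2 and 10.32, 10.18, 9.88, 9.88 and 9.49 with estradiol. They were 9.25, 9.53, 10.23, 9.73 and 9.60 in the beta-titled group and 9.93, 9.98, 11.16, 10.44 and 9.80 with placebo. Placebo replicate 33, at 11.16, was the highest of the 20 arrays, and beta-titled replicate 31 the lowest. Replicate 33 was also the highest of the 16α-LE2 arrays, at 10.64, and of the beta-titled arrays, at 10.23, but not of the estradiol arrays. The SD within groups was 0.41 log2 units, at the 99.1th percentile of all genes tested. The difference from placebo was −0.10 ± 0.23 with 16α-LE2 and −0.31 ± 0.23 with estradiol (SE; limma adjusted p = 0.95 and 0.532). Without placebo replicate 33 these were 0.13 and −0.09, and the first was also positive without 16α-LE2 replicate 32 (0.0024), after quantile normalization (0.019) and with array weights (0.062), so its sign is not settled. With replicate number as a block in the fit, the differences from placebo were −0.40 with 16α-LE2 and −0.64 with estradiol (limma adjusted p = 0.508 and 0.315). In the beta-titled group Irs1 was 1.51-fold below placebo (95% interval of the log2 difference −1.06 to −0.13, limma adjusted p = 0.707). That log2 difference was −0.60, and −0.37 without placebo replicate 33, −0.41 without the 3 arrays of narrowest spread and −0.45 after quantile normalization.

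**Figure D2:**
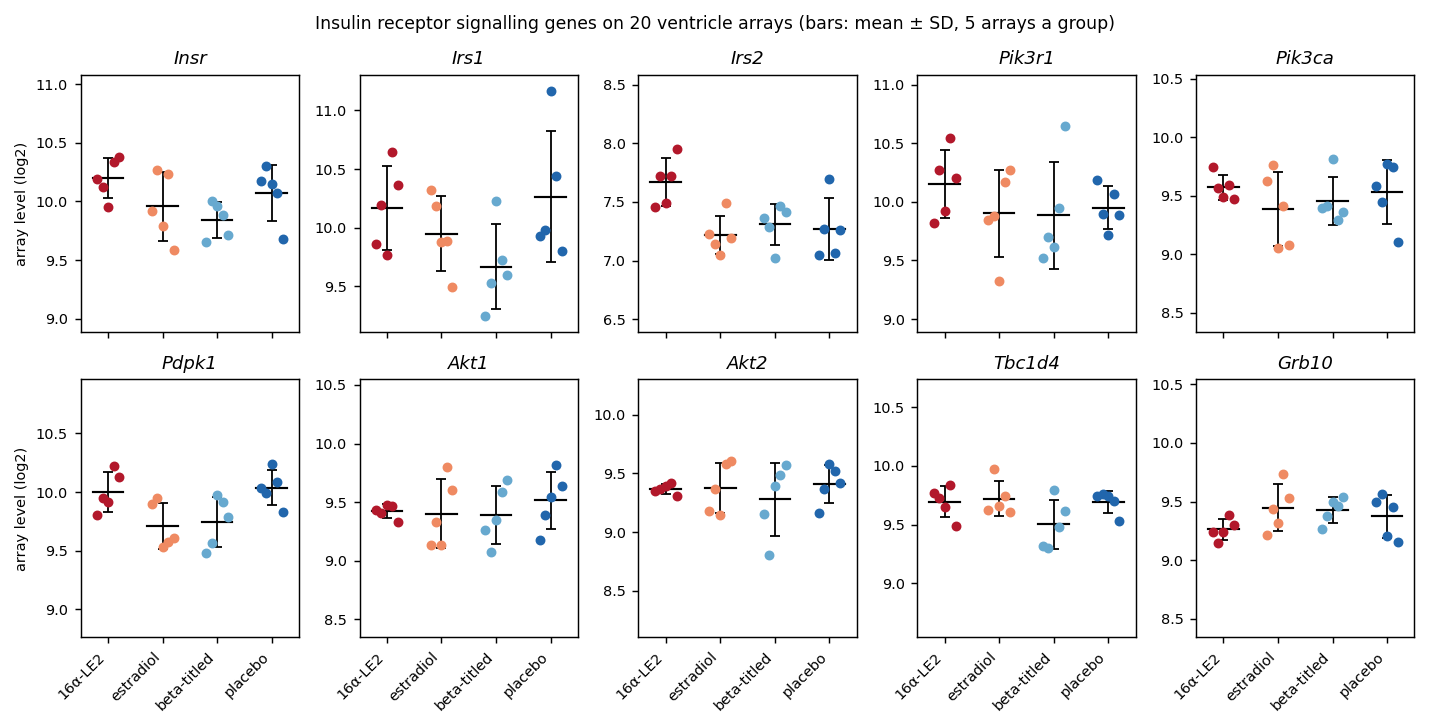
Log2 array level of each of the 10 genes (vertical axis, all panels spanning the same number of log2 units) in the 4 groups, with 1 point for each array and bars for the mean ± SD of 5 arrays. For Irs2 all 5 points with 16α-LE2 lie above the placebo mean and placebo replicate 33 lies at 7.70, and for Irs1 the same placebo array stands at 11.16.

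Phosphatidylinositol 3-kinase pairs a regulatory subunit, p85α from Pik3r1, with a catalytic subunit, p110α from Pik3ca. Pik3r1 averaged 10.15 ± 0.29 with 16α-LE2, 9.90 ± 0.37 with estradiol, 9.88 ± 0.45 in the beta-titled group and 9.95 ± 0.18 with placebo (SD, n = 5 each). With 16α-LE2 it ranged from 9.82 to 10.55, and with placebo from 9.72 to 10.19. The log2 difference was 0.20 ± 0.19 (SE; limma adjusted p = 0.84), and all 3 other Pik3r1 probe sets, which lay above the filter, also had positive differences. One of these, of mean level 7.80, was 0.39 ± 0.19 above placebo (SE; limma adjusted p = 0.637 over all probe sets). With estradiol the Pik3r1 probe sets went both ways, from −0.20 to 0.10.

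Pik3ca averaged 9.57 ± 0.11 with 16α-LE2, 9.39 ± 0.32 with estradiol, 9.45 ± 0.21 in the beta-titled group and 9.53 ± 0.27 with placebo (SD, n = 5 each). Its differences from placebo, 0.04 ± 0.14 with 16α-LE2 and −0.14 ± 0.14 with estradiol (SE), did not pass (limma adjusted p = 0.97 and 0.627). The other 4 Pik3ca probe sets above the filter all lay below placebo with estradiol, by 0.20 to 0.30 log2 units, and 1 of them was under 0.05 before adjustment (limma adjusted p = 0.559 over all probe sets). With 16α-LE2 those 4 were negative, down to −0.11, while the one used was positive, so the sign for Pik3ca depends on the probe set.

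Pdpk1 encodes PDK1, the kinase that phosphorylates Akt in its activation loop. Its levels were 9.80, 9.95, 9.91, 10.22 and 10.13 with 16α-LE2 and 9.90, 9.95, 9.53, 9.58 and 9.61 with estradiol. They were 9.48, 9.57, 9.97, 9.92 and 9.78 in the beta-titled group and 10.03, 9.99, 10.24, 10.09 and 9.83 with placebo. All 5 estradiol arrays and all 5 beta-titled arrays lay below the placebo mean, and the ranges overlapped. Pdpk1 was 0.32 ± 0.12 log2 units below placebo with estradiol and 0.29 ± 0.12 below it in the beta-titled group (SE; limma adjusted p = 0.499 and 0.707), against 0.03 ± 0.12 below it with 16α-LE2 (limma adjusted p = 0.971). Relative to estradiol, 16α-LE2 was 0.29 log2 units higher (95% interval 0.05 to 0.53; limma adjusted p = 0.875).

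The other Pdpk1 probe set, of mean level 7.94, gave −0.18 ± 0.11 with estradiol, 0.01 ± 0.11 with 16α-LE2 and −0.07 ± 0.11 in the beta-titled group (SE). With the probe set used, the beta-titled difference was −0.14 without the 3 arrays of narrowest spread and −0.15 after quantile normalization. The low estradiol arrays are replicates 33, 34 and 35, and without replicate 33 the estradiol difference was −0.28. Replicates 29 and 30 lay within the placebo range.

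Akt1 and Akt2 encode the protein kinases at the centre of the pathway, and Akt2 is the form most closely tied to glucose uptake in mouse muscle and fat. Akt1 averaged 9.42 ± 0.06 with 16α-LE2, 9.40 ± 0.29 with estradiol, 9.39 ± 0.25 in the beta-titled group and 9.51 ± 0.24 with placebo (SD, n = 5 each). Akt2 averaged 9.37 ± 0.04 with 16α-LE2, 9.38 ± 0.21 with estradiol, 9.28 ± 0.31 in the beta-titled group and 9.41 ± 0.16 with placebo. The groups had nearly the same means for both genes, and the arrays with 16α-LE2 lay much closer together than those of the other groups. For Akt2 the 95% interval of 16α-LE2 over placebo was 0.81- to 1.16-fold and that of estradiol over placebo 0.81- to 1.17-fold (limma adjusted p = 0.961 and 0.898), which leaves room for small differences of either sign. For Akt1 these intervals were 0.77- to 1.14-fold and 0.76- to 1.12-fold (limma adjusted p = 0.909 and 0.684).

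Within the groups Akt1 and Akt2 went up and down together from array to array, with estradiol replicates 34 and 35 at 9.80 and 9.60 for Akt1 and 9.58 and 9.60 for Akt2, and replicates 29 and 33 at 9.13 and 9.14 for Akt1 and 9.18 and 9.15 for Akt2. Among all 12082 genes, the one whose levels over the 20 arrays were ordered most like those of Akt2 was Akt1 (Spearman's rho = 0.916, and 0.907 without estradiol replicate 33). Both Akt2 probe sets not used had the same sign as the one used against placebo with both agonists. Of the 3 other Akt1 probe sets, those of mean level 7.27 and 7.05 had the opposite sign with both agonists.

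Tbc1d4 encodes AS160, the Akt substrate that holds GLUT4 vesicles back until it is phosphorylated. It averaged 9.70 ± 0.13 with 16α-LE2, 9.72 ± 0.15 with estradiol, 9.502 ± 0.21 in the beta-titled group and 9.70 ± 0.09 with placebo (SD, n = 5 each). The difference from placebo with 16α-LE2, 0.00 ± 0.10 (SE, 95% interval −0.21 to 0.22), was the smallest of the 10, and with estradiol it was 0.02 ± 0.10. The beta-titled group lay 0.19 ± 0.10 below placebo (SE; limma adjusted p = 0.707), with its lowest arrays, replicates 31 and 32 at 9.32 and 9.30, being also those of narrowest spread. Without these and estradiol replicate 33 the difference was −0.07. Estradiol stood 0.22 above the beta-titled group (limma adjusted p = 0.925), the 1 gene of the 10 with an unadjusted p under 0.05 in a comparison where 3.83% of all genes had one and 0% passed. The other Tbc1d4 probe set, of mean level 6.91, lay below the filter. It differed from placebo by 0.13 ± 0.06 with 16α-LE2, 0.12 ± 0.06 with estradiol and 0.09 ± 0.06 in the beta-titled group (SE).

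Grb10 encodes an adaptor that binds the active insulin receptor and inhibits it. It averaged 9.26 ± 0.09 with 16α-LE2, 9.45 ± 0.20 with estradiol, 9.43 ± 0.11 in the beta-titled group and 9.37 ± 0.18 with placebo (SD, n = 5 each). All 5 arrays with 16α-LE2 lay below the estradiol mean and below the beta-titled mean. The log2 differences of 16α-LE2 were −0.11 ± 0.10 from placebo, −0.18 ± 0.10 from estradiol and −0.17 ± 0.10 from the beta-titled group (SE), none of which passed (limma adjusted p = 0.836, 0.875 and 1). Grb10 was the 1 gene of the 10 that was lower with 16α-LE2 than in the beta-titled group. Both other Grb10 probe sets, of mean level 6.88 and 6.83, lay below the filter. With 16α-LE2 they differed from placebo by −0.03 ± 0.06 and 0.15 ± 0.08 (SE).

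**Figure D3:**
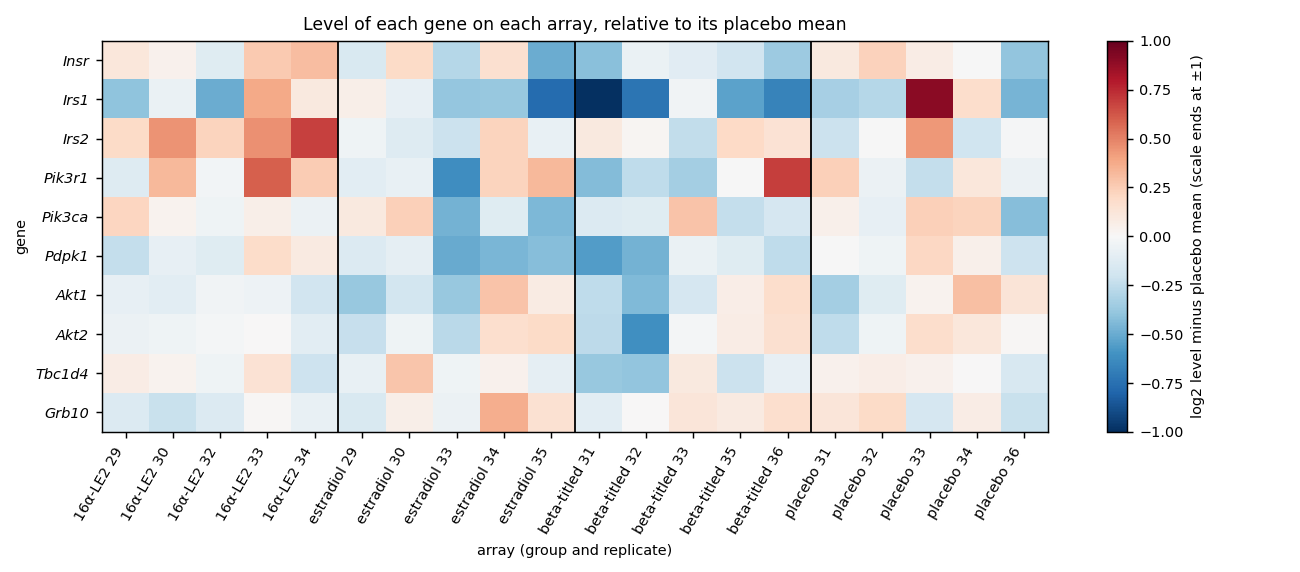
Log2 level of each of the 10 genes (rows) on each of the 20 arrays (columns, grouped), minus the gene's placebo mean; red is above it and blue below it, on a scale that ends at 1 log2 unit in each direction. Irs2 is above its placebo mean on all 5 arrays with 16α-LE2, Pdpk1 is below its own on all 5 estradiol and all 5 beta-titled arrays, and Akt1 and Akt2 share their pattern across arrays.

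Between the agonists, 16α-LE2 against estradiol, 0 of the 10 genes passed, 7 were higher and 3 lower, and Irs2 and Pdpk1 had an unadjusted limma p under 0.05, against 5.19% of all genes. In fits without 16α-LE2 replicate 33 or 34, or without estradiol replicate 33, 34 or 35, Pdpk1 was not under 0.05. Irs2 still was in each of these fits, against 3.43% to 6.24% of all genes. With all 20 arrays the median difference of the 10 was 0.20, beside −0.02 over all genes. Against the beta-titled group, 16α-LE2 had 9 genes higher and 1 lower, with Insr, Irs1, Irs2 and Pdpk1 at an unadjusted limma p under 0.05, against 5.6% of all genes, and a median of 0.23 beside 0.00 over all genes. Without the 3 arrays of narrowest spread, which include beta-titled replicates 31 and 32, these were 7 higher and 3 lower, and the genes at an unadjusted p under 0.05 were Insr, Irs2 and Grb10, the last of them lower, against 8.83% of all genes. Leaving out either of these beta-titled arrays alone left Insr and Irs2 at an unadjusted p under 0.05. The shares of all genes were then 4.24% without replicate 31 and 5.02% without replicate 32. The mean of probe sets left Irs1 and Irs2, against 5.87% of all genes. The split of the 10 genes against placebo also moved with scaling: with 16α-LE2 5 were higher and 5 lower as deposited, and 9 higher and 1 lower after quantile normalization, which moved the median of all genes by 0.04. With estradiol it was 2 higher and 8 lower as deposited, and 5 and 5 after quantile normalization. The genes were not independent of each other: within the groups, deviations of Irs1 and Pdpk1 correlated at r = 0.82. Counts and medians of the 10 genes therefore do not rest on 10 separate results.

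The widest 95% bound on a difference from placebo with 16α-LE2 was 1.56-fold, for Irs2, and the narrowest 1.16-fold, for Tbc1d4. With estradiol the widest was 1.72-fold, for Irs1, and the narrowest 1.18-fold, for Tbc1d4. Missing the threshold does not show that levels were equal within these bounds.

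The 10 genes have 29 probe sets in all, of which 23 had a mean above the filter. Tested one by one over all 34945 probe sets of a single gene, none of the 29 passed in any of the 6 comparisons with limma, and the smallest adjusted p was 0.288, for Irs2 with 16α-LE2 against placebo. Of all 34945, 0.0887% passed for 16α-LE2 against placebo, 0.00858% for 16α-LE2 against estradiol, 0.0601% for 16α-LE2 against the beta-titled group and 0% in the other 3 comparisons. For 16α-LE2 against placebo 2 of the 29 had an unadjusted limma p under 0.05, 1 each of Irs2 and Pik3r1, against 7.84% of all probe sets. For estradiol against placebo it was also 2, 1 each of Pdpk1 and Pik3ca, against 8.81%.

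**Figure D4:**
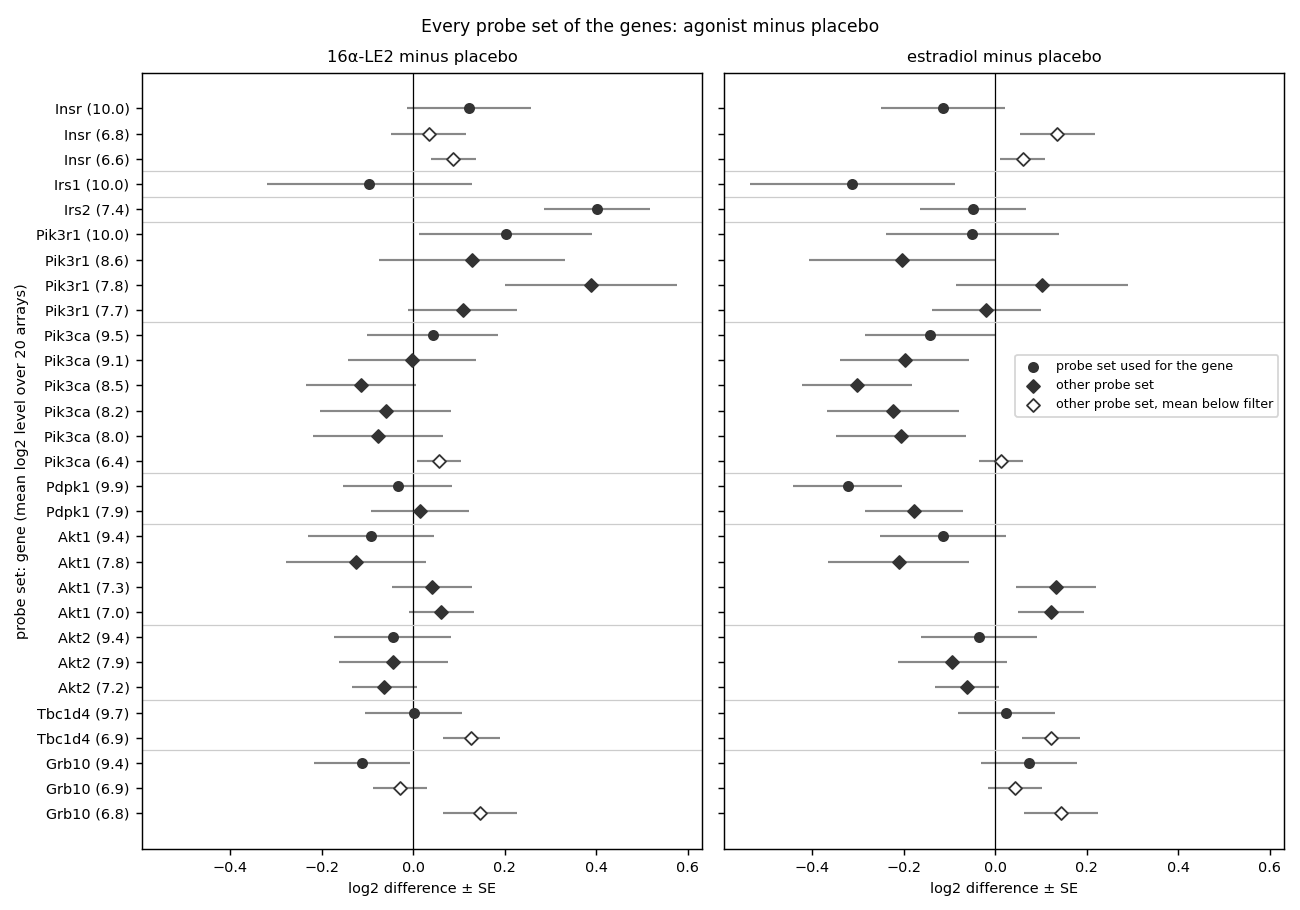
Log2 difference ± SE of each of the 29 probe sets (rows, labelled by gene and mean log2 level) for 16α-LE2 minus placebo (left) and estradiol minus placebo (right). Circles are the probe sets used for the genes, filled diamonds are other probe sets and open diamonds are those whose mean is below the filter; all 4 of Pik3r1 lie right of 0 with 16α-LE2, and both of Pdpk1 lie left of 0 with estradiol.

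Other genes of the pathway were read from 5 lists that hold 93 genes, of which 81 were tested. None of the 81 passed in any of the 6 comparisons (smallest limma adjusted p = 0.265). For 16α-LE2 against placebo 5 of them had an unadjusted limma p under 0.05, 1 higher and 4 lower, and for estradiol against placebo 7, all lower. These are 6.17% and 8.64% of the 81, beside 9.01% and 9.63% of all genes.

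Among receptors and adaptors, 0 of 9 tested genes passed in either direction, with 2 above and 7 below placebo with 16α-LE2. Of the 9, 3 had an unadjusted limma p under 0.05 with 16α-LE2, all lower, against 9.01% of all genes. With estradiol 2 did, both lower, against 9.63%. Sos1, an exchange factor for Ras, averaged 7.93 ± 0.09 with 16α-LE2 and 8.12 ± 0.04 with placebo (SD, n = 5 each; limma adjusted p = 0.351). Shc1 and Grb2, adaptors on the branch to Ras, were 0.21 and 0.26 log2 units below placebo with 16α-LE2 and 0.23 and 0.30 below it with estradiol. Igf1r, the receptor of insulin-like growth factor 1, differed from placebo by −0.01 ± 0.08 with 16α-LE2 and 0.02 ± 0.08 with estradiol (SE). Among the other lipid and protein kinases 0 of 13 passed, and the smallest unadjusted p in the agonist comparisons were those of Pik3r3 and Prkci (−0.19 and −0.15 log2 units with 16α-LE2) and of Rictor and Rheb (−0.24 and −0.22 with estradiol).

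Among the brakes of the pathway 0 of 19 passed. Trib2, a pseudokinase, was 0.40 ± 0.14 log2 units below placebo with 16α-LE2 (SE; limma adjusted p = 0.351), and Ppp2ca, the catalytic subunit of protein phosphatase 2A, was 0.27 ± 0.10 below it with estradiol (limma adjusted p = 0.499). With the same rule, Ptpn2 was named at −0.27 with estradiol and Ppp2ca at −0.17 with 16α-LE2. Among Akt substrates and genes of GLUT4 traffic 0 of 24 passed. Eif4ebp1, a repressor of translation, was 0.33 ± 0.14 above placebo with 16α-LE2 (limma adjusted p = 0.487) and 0.03 ± 0.14 below it with estradiol (SE). Rhoq was at −0.20 with 16α-LE2, and Snap23 and Stxbp3 were at −0.29 and −0.26 with estradiol.

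Genes induced by FOXO factors in other tissues, which insulin holds down through Akt, were counted as a list of 16, all tested. None passed, with 9 above and 7 below placebo with 16α-LE2 and 6 above and 10 below with estradiol, at medians of 0.03 and −0.02. Klf15 and Fbxo32, a transcription factor and a ubiquitin ligase, were 0.39 ± 0.20 and 0.28 ± 0.15 log2 units above placebo with 16α-LE2 (SE; limma adjusted p = 0.579 and 0.621). Pdk4, a kinase that restrains pyruvate dehydrogenase, and Ccng2 were 0.59 ± 0.20 and 0.38 ± 0.21 below placebo with estradiol (SE; limma adjusted p = 0.499 for both).

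**Figure D5:**
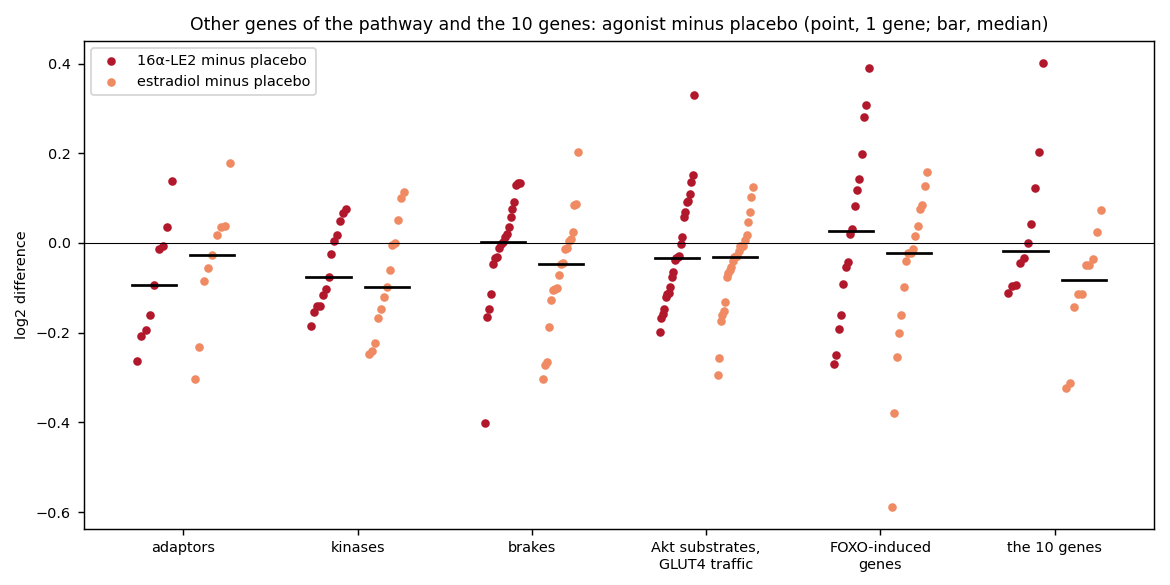
Log2 difference from placebo of each tested gene (points) of the 5 lists of pathway genes and of the 10 genes, for 16α-LE2 and for estradiol, with a bar at the median of each set. The points of every set lie on both sides of 0, and Irs2 is the highest point of the 10 genes with 16α-LE2.

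The insulin-responsive transporter gene Slc2a4 stood at 10.90 ± 0.03 with 16α-LE2, 10.93 ± 0.24 with estradiol, 10.83 ± 0.15 in the beta-titled group and 10.93 ± 0.11 with placebo (SD, n = 5 each), and Slc2a1, which encodes GLUT1, at 8.85 ± 0.12, 8.71 ± 0.22, 8.38 ± 0.12 and 8.46 ± 0.12 in the same groups. Neither passed against placebo with limma (adjusted p = 0.973 and 0.118 with 16α-LE2). Against the beta-titled group, Slc2a1 was 0.47 ± 0.10 log2 units higher with 16α-LE2 (SE) and passed (limma adjusted p = 0.0469). Over the 20 fits that each lacked 1 array, this difference was 0.43 to 0.50 and its limma adjusted p 0.00909 to 0.173. Slc2a1 passed in 4 of these fits. These 4 lacked estradiol replicate 29, 33 or 34 or placebo replicate 36, arrays outside the comparison. Every fit that lacked a 16α-LE2 or beta-titled array missed the threshold (limma adjusted p = 0.0617 to 0.173).

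The genes whose levels over the 20 arrays were ordered most like those of Irs2 were Reln, Fosl2 and Usp54 (Spearman's rho = 0.806, 0.805 and 0.783, and 0.791, 0.784 and 0.767 without estradiol replicate 33). Against placebo with 16α-LE2 these were at 0.26 ± 0.11, 0.15 ± 0.22 and 0.29 ± 0.10 log2 units (SE), and none passed. For Insr they were Serbp1, Iars and Nono (rho = 0.860, 0.859 and 0.850). The nearest gene was Wdr75 for Irs1 (rho = 0.895), Taf6 for Pik3r1 (0.821), Ppil6 for Pik3ca (0.937), Gmps for Pdpk1 (0.923), Smpd1 for Akt1 (0.929), Gprasp1 for Tbc1d4 (0.880) and Tnfrsf21 for Grb10 (0.794). These values are the highest over all other genes tested, on arrays that share their preparation, and describe likeness of pattern only.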

How the data were processed

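Per the labels' protocols, biotinylated cRNA from 100 ng total RNA was hybridised to Affymetrix arrays. The deposited values are log2 levels of 45101 probe sets on 20 arrays. That they are log2 was taken from their range (5.07 to 15.31). The log base, the summarization and the normalization between arrays: not given in the sources used here. The number of arrays limits the precision.

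From these, 64 control probe sets were left out and 34945 probe sets with 1 symbol in the platform annotation kept (932 had several and 9160 none). Gene IDs of 34741 were found in the RefSeq gene table (GRCm38.p6). Genes were tested where the mean of their highest probe set exceeded the median of all (6.93). All 20 arrays were fitted in limma 3.58.1 (R 4.3.3) by lmFit, 1 mean per group, and eBayes with trend, with 6 contrasts, Benjamini-Hochberg adjustment over 12082 genes and a threshold of 0.05. The fit was tested on simulated data. P-values measure the spread between these samples, which the labels do not tie to animals in so many words.

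The members and lists were chosen with earlier results of these data known. Named besides the 10 genes were Slc2a1, Slc2a4 and Igf1r, called list members or, with none called, the 2 of smallest p per list and agonist, and the genes of highest Spearman's rho with each member. Alternatives covered filter, probe set summary, quantile scaling, array weights, groups fitted, replicate block, trend, threshold, pooled controls and leaving out each array. Leaving out the 3 arrays of narrowest spread, and each array for Slc2a1, was added after the data were examined. Of the 10 genes, 9 matched RefSeq promoter sequences, and the motifs were chosen after the data were examined. Of 17 pairs of same-numbered arrays, 6 deviated together with r over 0.1, so replicate numbers were not taken as pairs. Pairs of replicate 33 among the 16α-LE2, beta-titled and placebo groups had r of 0.20 to 0.35. Where estradiol replicate 33 was in the pair, r was −0.35 to −0.06. What the arrays numbered 33 share was not tested. Figures were drawn with matplotlib 3.10.9.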

Additional observations from a re-analysis of the deposited data

Results flagged for a closer look

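In 40 sets of 5 arrays, 10 genes in 4 groups, an array standing far from the other 4 of its group was sought. Chance alone marks about 1 in 20 sets, and 2 sets were marked. Pik3ca in beta-titled replicate 33 stood at 9.81, against 9.29 to 9.41 on the other beta-titled arrays, a gap of 0.770 of the range of the group. Tbc1d4 in placebo replicate 36 stood at 9.53, against 9.70 to 9.76 on the other placebo arrays, a gap of 0.732 of the range. Placebo replicate 33 was not marked for Irs1 or Irs2, although it was the highest placebo array for both.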

How the results depend on the processing

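The number of all genes past the threshold for 16α-LE2 minus placebo was 27, and it was 16 with the mean of probe sets, 357 with array weights, 62 at an adjusted p under 0.10, 71 with placebo and beta-titled arrays pooled and 60 without the 3 arrays of narrowest spread. Of the 10 genes, 1 passed with array weights. For 16α-LE2 minus estradiol 2 genes passed, against 4 with no filter, 4 with a stricter filter, 0 with the mean of probe sets, 20 with array weights, 4 with the replicate block, 6 at an adjusted p under 0.10 and 1 without the 3 arrays of narrowest spread. For 16α-LE2 minus the beta-titled group 21 passed, against 32 after quantile normalization, 122 with array weights, 46 with only those groups, 34 at an adjusted p under 0.10 and 10 without the 3 arrays of narrowest spread. Leaving out 1 array at a time gave 8 (without placebo replicate 31) to 74 (without estradiol replicate 33) for 16α-LE2 minus placebo, 0 to 11 for 16α-LE2 minus estradiol, 7 to 37 for 16α-LE2 minus the beta-titled group, and 0 to 1 for estradiol minus placebo and for estradiol minus the beta-titled group. The calls for 16α-LE2 minus placebo split into 3 higher and 24 lower as deposited, and 7 and 16 after quantile normalization. Of 17 pairs of same-numbered arrays, deviations correlated between −0.35 and 0.51, and the replicate block passed none of the 10 genes. With it the difference of Irs1 was −0.40 for 16α-LE2 minus placebo and −0.64 for estradiol minus placebo (limma adjusted p = 0.508 and 0.315), both at an unadjusted p under 0.05, and Irs2 was the 1 gene of the 10 at an unadjusted p under 0.05 for 16α-LE2 minus the beta-titled group, where Insr was at 0.13.

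Of 1814 values of the 10 genes under the alternatives, 1703 kept their sign and their side of the threshold, 110 changed sign and 1 newly passed, which was Irs2 for 16α-LE2 minus placebo with array weights, at 0.46. None of the sign changes passed, and the cause was not tested. Irs2 fell below the stricter filter, so that setting gave it no value. The turned log2 differences with the setting replicate block were for 16α-LE2 minus placebo Insr −0.024, Pik3ca −0.19, Tbc1d4 −0.076, and for estradiol minus placebo Tbc1d4 −0.054, and for 16α-LE2 minus estradiol Akt2 0.076, and for 16α-LE2 minus the beta-titled group Pik3ca −0.19, and for estradiol minus the beta-titled group Insr −0.062, Irs1 −0.12, Akt1 −0.033. The turned log2 differences with the setting quantile normalization were for 16α-LE2 minus placebo Irs1 0.019, Pdpk1 0.078, Akt1 0.011, Akt2 0.058, and for estradiol minus placebo Insr 0.0023, Pik3r1 0.058, Akt2 0.058, and for the beta-titled group minus placebo Pik3r1 0.063, Pik3ca 0.060, and for estradiol minus the beta-titled group Pik3r1 −0.0050, Akt1 −0.017, Grb10 −0.0093. The turned log2 differences with the setting array weights were for 16α-LE2 minus placebo Irs1 0.062, Akt2 0.0035, Tbc1d4 −0.0093, and for estradiol minus placebo Irs2 0.018, Pik3r1 0.060, Akt1 0.0049, Akt2 0.067, and for the beta-titled group minus placebo Akt1 0.0039, and for 16α-LE2 minus estradiol Akt1 −0.032, and for 16α-LE2 minus the beta-titled group Akt1 −0.031, and for estradiol minus the beta-titled group Pik3ca 0.00071. The turned log2 differences with the setting placebo and beta-titled arrays pooled were for 16α-LE2 minus placebo Irs1 0.20, Pdpk1 0.11, Akt2 0.020, and for estradiol minus placebo Insr 0.00043, Akt2 0.030. The turned log2 differences with the setting mean of probe sets were for 16α-LE2 minus placebo Pik3ca −0.026, Grb10 0.0016, and for estradiol minus placebo Insr 0.027, and for the beta-titled group minus placebo Insr 0.0066, and for 16α-LE2 minus estradiol Akt1 −0.011, Akt2 0.013, and for estradiol minus the beta-titled group Pik3r1 −0.031. The turned log2 differences with the setting without the 3 arrays of narrowest spread were for estradiol minus placebo Pik3r1 0.093, Akt2 0.022, and for the beta-titled group minus placebo Pik3r1 0.12, Akt1 0.025, Akt2 0.071, and for 16α-LE2 minus estradiol Akt1 −0.044, and for 16α-LE2 minus the beta-titled group Akt1 −0.12, Akt2 −0.12, and for estradiol minus the beta-titled group Pik3r1 −0.023, Akt1 −0.074, Akt2 −0.049, Grb10 −0.021. For 16α-LE2 minus placebo, the fits that each lack 1 array gave Irs1 −0.22 to 0.13, Pik3ca −0.064 to 0.10, Pdpk1 −0.088 to 0.017, Tbc1d4 −0.040 to 0.053. For estradiol minus placebo, the fits that each lack 1 array gave Irs2 −0.12 to 0.059, Pik3r1 −0.14 to 0.093, Akt2 −0.10 to 0.022, Tbc1d4 −0.039 to 0.052. For the beta-titled group minus placebo, the fits that each lack 1 array gave Irs2 −0.012 to 0.15, Pik3r1 −0.26 to 0.024, Grb10 −0.00033 to 0.10. For 16α-LE2 minus estradiol, the fits that each lack 1 array gave Akt1 −0.045 to 0.12, Akt2 −0.067 to 0.047, Tbc1d4 −0.059 to 0.040. For 16α-LE2 minus the beta-titled group, the fits that each lack 1 array gave Akt1 −0.049 to 0.10, Akt2 −0.034 to 0.16. For estradiol minus the beta-titled group, the fits that each lack 1 array gave Pik3r1 −0.077 to 0.21, Pik3ca −0.16 to 0.023, Pdpk1 −0.10 to 0.027, Akt1 −0.092 to 0.083, Akt2 −0.024 to 0.17, Grb10 −0.054 to 0.075.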

Other observations

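The spread of Akt1 and Akt2 within groups was chosen for description after the values were seen. The SD of Akt2 over 5 arrays was 0.04 log2 units with 16α-LE2, 0.21 with estradiol, 0.31 in the beta-titled group and 0.16 with placebo. For Akt1 these were 0.06, 0.29, 0.25 and 0.24. Over all genes the median SD was 0.10, 0.20, 0.13 and 0.12 in the same order, so the arrays with 16α-LE2 also lay closest together in general. The ratio of the SD with 16α-LE2 to that of the other groups was 0.174 for Akt2 and 0.228 for Akt1, at the 1.51th and 3.89th percentile of all genes, beside a median ratio of 0.626. Irs2 did not share this, with a ratio of 0.980.

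In the list of genes that FOXO factors induce in other tissues, 13 of 16 were higher and 3 lower with 16α-LE2 than in the beta-titled group, and 4 of these 16 had an unadjusted limma p under 0.05, all higher and singled out after their values were seen, namely Bnip3 and Map1lc3b, genes of mitophagy and autophagy, the muscle ubiquitin ligase gene Trim63, and Sesn1. Over all genes, 5.6% had an unadjusted p under 0.05 in this comparison and 0.174% passed. The same list had 0 genes at an unadjusted p under 0.05 for 16α-LE2 against estradiol and 0 against placebo. Bnip3 was 0.42 ± 0.12 log2 units higher (SE), and none passed (smallest limma adjusted p = 0.265). Irs2, which FOXO factors induce in liver, was not in that list and was 0.36 ± 0.12 higher in the same comparison (limma adjusted p = 0.382). Beta-titled replicates 31 and 32, the arrays of narrowest spread, are part of it, and 1 of 6 fibroblast markers passed in it, whose part was not tested. The part of FOXO factors in the Irs2 difference was not tested either.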
